A study of Mus musculus with 6 samples.

Results

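The collagen genes of cultured mouse nephrogenic stroma were compared between a strongly and a weakly adhesive substrate. Members were the protein-coding genes whose symbol is Col, a type number, a and a chain number, which gave 44 genes of 21807 protein-coding genes and 78409 rows in the deposited table. They were sorted into 11 fibrillar, 9 FACIT (fibril-associated, with interrupted helices), 6 basement membrane (type IV) and 18 other collagens. The libraries came from wild-type CD1 mice at embryonic day 18. Cells of the nephron-forming zone were taken from pooled kidneys and sorted for the surface receptor PDGFRa. They were then cultured for 18 h on coverslips coated with the silicone PDMS. Bovine fibronectin had been laid on them from a solution of 50000 ng/mL for high adhesion (3 libraries) or 500 ng/mL for low adhesion (3 libraries), and each of litters 1, 2 and 3 gave 1 library of each kind. Both groups shared the serum-containing medium, the PDMS and the sort. Libraries held 12596249 to 13508257 counts, and levels are CPM after TMM scaling, which evens out differences in composition between libraries.

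Collagens are trimeric matrix proteins whose chains wind around each other in a triple helix of glycine-led triplets. Fibrillar collagens assemble into the banded fibrils of interstitial connective tissue, FACIT collagens decorate those fibrils, and type IV collagen forms the sheet-like network of basement membranes. The remaining types build beaded filaments (type VI), hexagonal networks (types VIII and X), anchoring fibrils (type VII) or sit in the cell membrane. In the fetal kidney the stroma lays down interstitial collagen between the nephrons, and type IV collagen borders epithelium, endothelium and mural cells.

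At high adhesion 5 of 10 tested fibrillar collagens were lower, the type I and type III chains among them, and 2 of 5 tested type IV collagens, Col4a1 and Col4a2, were higher. Of the 44 genes, 30 had enough counts to be tested, and 7 were lower and 4 higher at an adjusted p under 0.05 (edgeR, quasi-likelihood test with a litter block). Over all 14834 tested genes 4.83% were called lower, 4.71% higher and 9.55% in either direction. The 7 that fell were Col1a1, Col1a2, Col2a1, Col3a1, Col5a2, Col6a3 and Col8a1, and the 4 that rose were Col4a1, Col4a2, Col19a1 and Col26a1. The called changes were small, between 1.1-fold and 1.71-fold except for Col19a1. Without litter as a block no collagen passed in edgeR, and 0.243% of all tested genes did. At an unadjusted p under 0.05 in that fit stood 7 collagens, against 9.16% of all tested genes. In DESeq2 with litter in the model 2 collagens were lower (Col1a1 and Col3a1) and 2 higher (Col4a1 and Col4a2). Over all genes that fit called fewer than edgeR, 199 lower and 207 higher of 11670 tested. In bulk RNA, fewer cells of a type and less RNA per cell cannot be told apart.

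**Figure D1:**
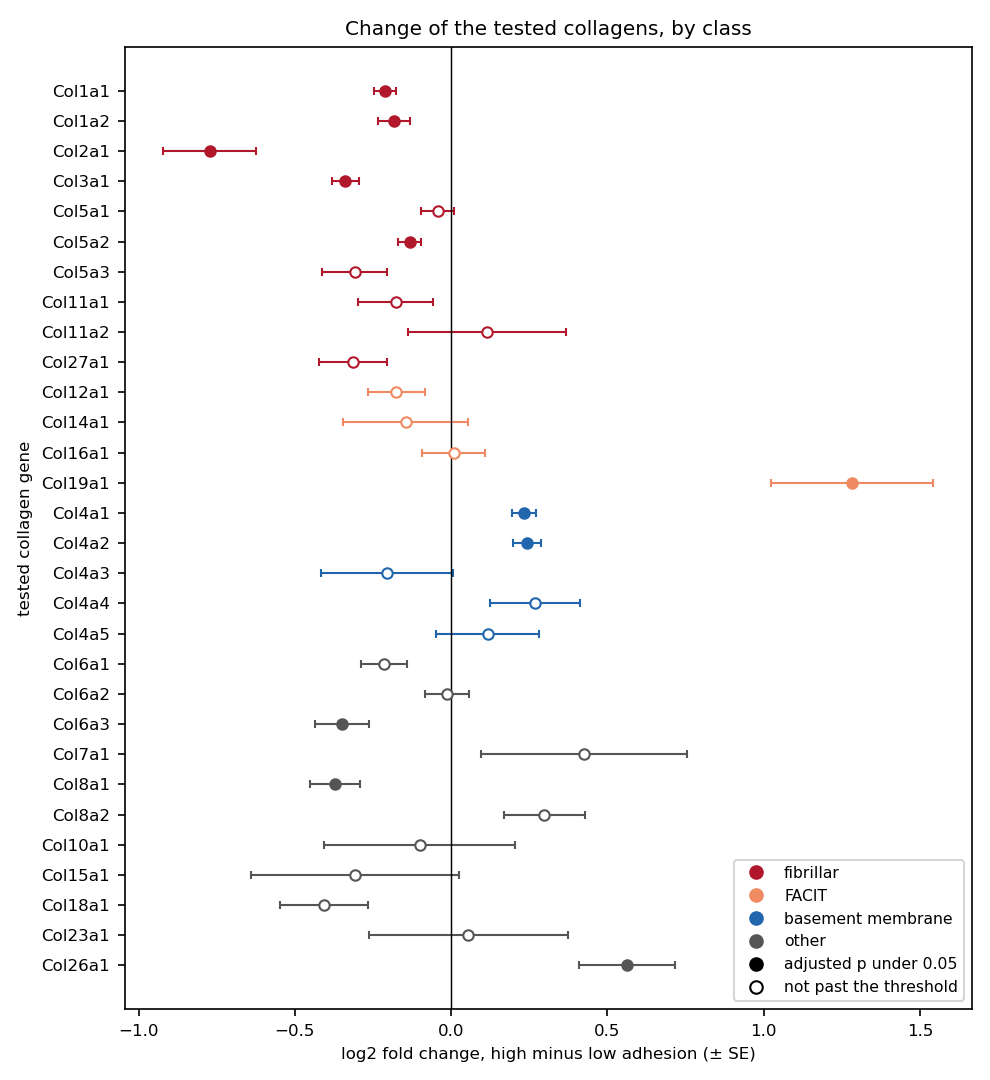
Log2 fold change (high minus low adhesion, x axis, ± standard error) of the 30 tested collagens, one per row, coloured by class, with filled points for an adjusted p under 0.05. Filled fibrillar points all lie left of 0, and the filled type IV points Col4a1 and Col4a2 lie right of it at 0.23 and 0.24.

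Type I and type III chains make the bulk of interstitial fibrils. Col1a1 (ENSMUSG00000001506), the alpha-1 chain of type I, had 1402, 1401 and 1332 CPM in the high adhesion libraries of litters 1, 2 and 3, against 1612, 1653 and 1526 CPM in the low adhesion libraries. All high adhesion libraries lay below all low adhesion libraries, with a log2 fold change of -0.21 ± 0.035 (standard error, edgeR adjusted p = 0.000161). Col1a2 (ENSMUSG00000029661), the partner alpha-2 chain, had 170.2, 157 and 128 CPM at high and 172, 198 and 147 CPM at low adhesion. Its groups overlapped and litter 1 barely moved, with a log2 fold change of -0.18 ± 0.051 (edgeR adjusted p = 0.0213) that did not pass without litter 2 (edgeR adjusted p = 0.177), without litter 3 (edgeR adjusted p = 0.0806) or in DESeq2 (DESeq2 adjusted p = 0.203). Col3a1 (ENSMUSG00000026043), the single chain of type III, had 212, 295 and 259 CPM at high and 262, 403 and 310.0 CPM at low adhesion. The groups overlapped because litter 2 was high on both substrates, but each litter was lower at high adhesion (-0.34 ± 0.043 on the log2 scale, edgeR adjusted p = 4.01e-06). That was the lowest adjusted p of the 30.

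Type V chains gave 1 call. Col5a2 (ENSMUSG00000026042), a chain of the type V collagen that nucleates fibrils, had 635, 658 and 578 CPM at high and 683, 720.1 and 647 CPM at low adhesion. Its log2 fold change of -0.13 ± 0.037 (edgeR adjusted p = 0.0216) had the same direction in each litter and was the smallest of the called changes. It did not pass without litter 3 (edgeR adjusted p = 0.345) or in DESeq2 (DESeq2 adjusted p = 0.123). Its partner Col5a1 had a mean of 79.4 ± 19.6 CPM at high and 82.0 ± 21.3 CPM at low adhesion (SD, n = 3 each), with a log2 fold change of -0.044 that did not pass (edgeR adjusted p = 0.705).

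Col2a1 (ENSMUSG00000022483), the main fibrillar chain of cartilage, had 3.26, 3.38 and 3.70 CPM at high and 4.89, 6.54 and 6.28 CPM at low adhesion. The groups did not overlap, and its log2 fold change of -0.77 ± 0.15 (edgeR adjusted p = 0.000876) was the largest fall among the tested collagens, at a level of a few CPM; DESeq2 did not call it (DESeq2 adjusted p = 0.158). Beside it, chondrocyte markers summed to 75.4 to 78.4 CPM in high and 79.1 to 87.9 CPM in low adhesion libraries. Most of that sum was the proteoglycan gene Acan, with 54.0 to 57.6 CPM at high and 59.0 to 69.2 CPM at low adhesion. Of the 5 tested of 9 listed, 1 fell, Acan (-0.19 on the log2 scale, edgeR adjusted p = 0.0311), against 4.83% of all tested genes. The other 4 tested were not called, and Matn1 and Cnmd never exceeded 3 counts in a library. The part of such cells in the Col2a1 result was not tested.

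Col27a1, Col5a3 and Col11a1, other fibrillar chains of cartilage and connective tissue, had log2 fold changes of -0.31, -0.31 and -0.18 that did not pass (edgeR adjusted p = 0.0694, 0.0626 and 0.429). Col11a2 alone had a value above 0 (0.12, edgeR adjusted p = 0.867). Of the 10 tested fibrillar genes 5 fell, none rose and 9 had a value below 0. The class median was -0.20 on the log2 scale, against -0.0012 over all tested genes. In 8 of the 10 genes the high adhesion library was the lower one in 3 of 3 litters, which held for 20.4% of all tested genes.

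For Col1a2 and Col3a1, which fell, RefSeq gives the bases from 250 before to 50 after the start site (build GRCm38.p6, shown to compare a GC-rich and an AT-rich promoter of fibrillar genes that moved alike; capitals mark the motifs CCAAT and TATAAA and the motif GGGCGG, on either strand). The authors' counts are on another build, GRCm39, and no position is carried between them.
Col1a2, chr6:4505368-4505667, plus strand: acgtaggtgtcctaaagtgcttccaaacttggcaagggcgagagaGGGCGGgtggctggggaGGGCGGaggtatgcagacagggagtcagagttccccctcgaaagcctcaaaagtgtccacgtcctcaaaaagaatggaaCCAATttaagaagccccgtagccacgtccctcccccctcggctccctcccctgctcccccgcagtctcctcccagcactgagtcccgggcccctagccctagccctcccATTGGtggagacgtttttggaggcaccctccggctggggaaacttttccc
Col3a1, chr1:45311288-45311587, plus strand: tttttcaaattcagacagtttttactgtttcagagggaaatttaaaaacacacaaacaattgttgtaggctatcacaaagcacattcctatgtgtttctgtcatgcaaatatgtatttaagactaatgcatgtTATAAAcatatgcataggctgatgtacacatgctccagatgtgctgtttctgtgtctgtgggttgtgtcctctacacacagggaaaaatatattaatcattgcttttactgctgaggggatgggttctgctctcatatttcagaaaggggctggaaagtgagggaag
The Col1a2 window was 61.0% G and C with CCAAT on both strands and GGGCGG at 2 places. The Col3a1 window was 37.7% G and C, with TATAAA once, at position -117, and neither of the others. It also held CATTCC, a motif bound by TEAD factors. No promoter window is shown or counted for Col1a1, Col2a1, Col5a2, Col9a3, Col12a1, Col14a1, Col22a1, Col26a1 and Col4a3.

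**Figure D2:**
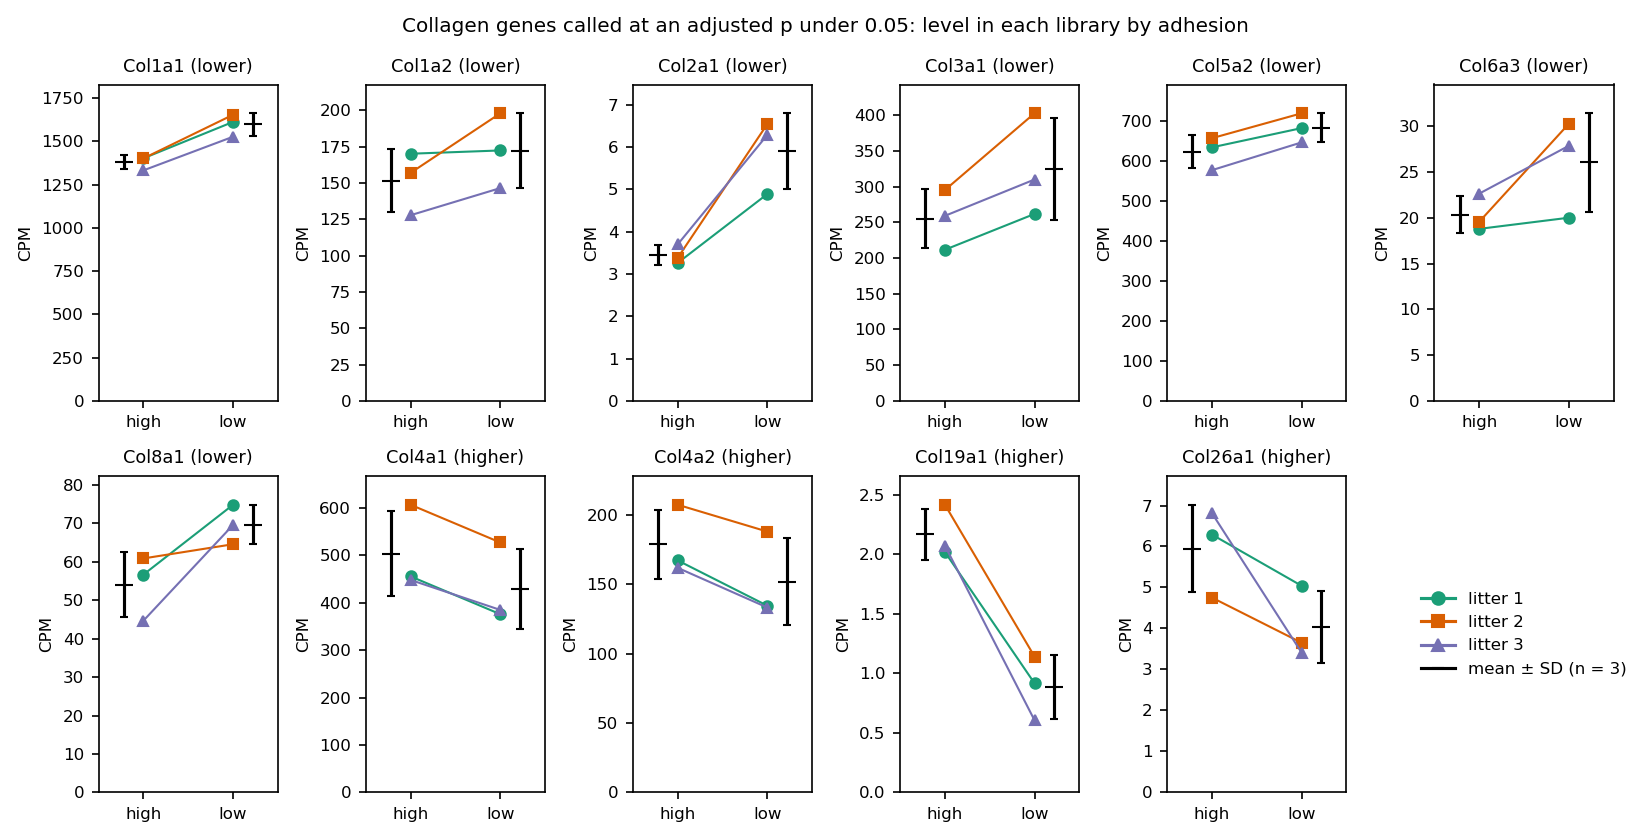
Level (CPM, y axis from 0) of the 11 called collagens in each library, high adhesion at the left and low at the right of each panel, with a line joining the libraries of a litter and black marks for the mean ± SD of 3. Col1a1, Col2a1, Col8a1 and Col19a1 separate the groups fully, while in Col4a1 the low adhesion library of litter 2 lies above the high adhesion libraries of litters 1 and 3.

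Of 5 tested type IV genes 2 rose, Col4a1 and Col4a2, and none fell. Col4a1 (ENSMUSG00000031502), the alpha-1 chain of the network found in nearly every basement membrane, had 456, 607 and 448 CPM at high and 376, 528 and 385 CPM at low adhesion. Each litter was higher at high adhesion, with litter 2 the highest on both substrates, and the log2 fold change was 0.23 ± 0.039 (edgeR adjusted p = 0.000153). Col4a2 (ENSMUSG00000031503), its obligate partner in the trimer, had 167, 207 and 162 CPM at high and 134, 188 and 133 CPM at low adhesion. The log2 fold change was 0.24 ± 0.045 (edgeR adjusted p = 0.000615), close to that of Col4a1, and the same litter stood highest. Neither gene passed without the litter block (edgeR adjusted p = 0.771 for Col4a1 and 0.731 for Col4a2), and both passed in each of the other settings tried, DESeq2 included.

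Col4a1 and Col4a2 are neighbours on opposite strands of chromosome 8 in RefSeq (GRCm38.p6). They run in opposite directions, with listed start sites 21 bases apart. Each listed start lies just inside the other gene, so their first bases overlap. The windows around the starts are shown because the genes that moved together share this stretch; capitals mark the 78 bases common to both windows, read on opposite strands.
Col4a1, chr8:11312777-11313076, minus strand: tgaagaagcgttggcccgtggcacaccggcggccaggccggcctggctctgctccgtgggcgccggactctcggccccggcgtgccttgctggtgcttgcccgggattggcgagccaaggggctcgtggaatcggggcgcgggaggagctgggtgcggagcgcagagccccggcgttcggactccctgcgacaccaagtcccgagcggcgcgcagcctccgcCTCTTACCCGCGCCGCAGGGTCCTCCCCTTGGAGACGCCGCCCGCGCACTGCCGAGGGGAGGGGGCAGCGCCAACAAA
Col4a2, chr8:11312555-11312854, plus strand: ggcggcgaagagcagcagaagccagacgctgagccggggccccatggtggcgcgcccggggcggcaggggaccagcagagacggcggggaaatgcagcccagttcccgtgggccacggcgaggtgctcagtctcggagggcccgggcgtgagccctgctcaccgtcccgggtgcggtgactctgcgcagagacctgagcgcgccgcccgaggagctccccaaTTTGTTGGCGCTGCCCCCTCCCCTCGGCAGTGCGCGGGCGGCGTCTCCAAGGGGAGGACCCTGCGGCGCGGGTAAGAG
The windows were 74.0% and 73.7% G and C. CCAAT occurred once in each, at position -145 of Col4a1 and -32 of Col4a2, counted from the start site as 1. Short motifs were searched on both strands in all 32851 RefSeq windows of this length. CCAAT was in 37.4% of them, GGGCGG in 35.7%, TATAAA in 13.6%, CATTCC in 14.7%, TGANTCA (bound by AP-1) in 7.81% and the CArG box (bound by SRF) in 1.63%. Of the 38 windows of 35 collagens, 13 held CCAAT, 23 GGGCGG, 5 TATAAA, 5 CATTCC, 1 TGANTCA and 1 a CArG box, and neither type IV window shown held any of the last 4. CCAAT and TATAAA can each lie within a CArG box, and CATTCC can share end bases with CCAAT or TGANTCA.

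The chains of the mature glomerular and tubular basement membrane were low. Col4a4 had 7.45, 4.19 and 4.37 CPM at high and 6.80, 3.12 and 3.41 CPM at low adhesion, with litter 1 the highest on both substrates (log2 fold change 0.27 ± 0.14, edgeR adjusted p = 0.293). Col4a5 averaged 3.87 ± 0.683 CPM at high and 3.57 ± 0.464 CPM at low adhesion, and Col4a3 1.93 ± 0.0835 CPM at high and 2.23 ± 0.455 CPM at low adhesion (SD, n = 3 each). Neither passed (edgeR adjusted p = 0.766 and 0.668). The podocyte gene Nphs1, whose cell type makes these chains in the glomerulus, never exceeded 4 counts in a library. Podocyte markers summed to 38.7 to 54.0 CPM at high and 41.9 to 51.9 CPM at low adhesion. Of 5 tested 1 was higher (Podxl), against 4.71% of all tested genes.

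Other cell types that make type IV collagen were followed through marker lists, beside 4.71% of all tested genes called higher and 4.83% lower. Endothelial markers summed to 76.2 to 105 CPM at high and 72.4 to 93.2 CPM at low adhesion, with 1 of 8 tested higher (Flt1) and 1 lower (Emcn), and Pecam1 and Cdh5 were below 2.1 CPM in every library. Ureteric epithelium markers summed to 511 to 927 CPM at high and 347 to 641 CPM at low adhesion. Most of that sum was Krt18, with 332 to 729 CPM at high and 200 to 494 CPM at low adhesion. Of 9 tested 3 were higher, all keratins (Krt8, Krt18 and Krt19), and 1 lower (Gata3). Epcam stood at 0.33 on the log2 scale (edgeR adjusted p = 0.100). Wnt9b, a defining ureteric gene, was at 0 counts in all 6 libraries. Smooth muscle and pericyte markers summed to 7002 to 10997 CPM at high and 5023 to 8317 CPM at low adhesion, with 5 of 10 higher, among them Acta2, Cnn1 and Tagln, and 2 lower, Rgs5 and Cspg4. The part of these cell types in the type IV result was not tested.

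FACIT collagens were mostly low and gave 1 call among 4 tested members. Col19a1 (ENSMUSG00000026141), a FACIT chain of embryonic muscle and basement membrane zones, had 2.02, 2.42 and 2.07 CPM at high and 0.916, 1.14 and 0.606 CPM at low adhesion. All high adhesion libraries lay above all low ones, and its log2 fold change of 1.28 ± 0.26 (edgeR adjusted p = 0.00140) was the largest of any tested collagen, at 8 to 30.5 counts per library. DESeq2 gave it no adjusted p, because its own filter on low counts removed it. It was the only tested collagen with high adhesion libraries all above the low ones, which was true of 7.95% of all tested genes.

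Col12a1, which sits on the surface of type I fibrils, had 97.4, 164 and 124 CPM at high and 128, 152 and 149 CPM at low adhesion. Litters 1 and 3 were lower at high adhesion and litter 2 higher, so the log2 fold change of -0.18 ± 0.092 did not pass (edgeR adjusted p = 0.349), but without litter 2 it was -0.33 and passed (edgeR adjusted p = 2.55e-06). It also passed with no filter on low counts (edgeR adjusted p = 0.0103), and 4 of its 6 counts were fractional. Col16a1 had 13.3, 9.90 and 10.1 CPM at high and 13.1, 10.6 and 9.39 CPM at low adhesion, levels that did not differ past the test (edgeR adjusted p = 0.977). Col14a1, a fibril-surface collagen, had 0.854, 5.96 and 0.888 CPM at high and 0.458, 6.62 and 1.44 CPM at low adhesion. It differed by litter far more than by substrate, and its log2 fold change with adhesion was -0.15 ± 0.20 (edgeR adjusted p = 0.754).

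The other collagens split by chain. In type VI, which forms beaded filaments around cells, Col6a3 (ENSMUSG00000048126) had 18.8, 19.6 and 22.6 CPM at high and 20.0, 30.3 and 27.9 CPM at low adhesion. Litter 2 fell most and litter 1 hardly moved, for a log2 fold change of -0.35 ± 0.086 (edgeR adjusted p = 0.00868). The call was lost without litter 2 (edgeR adjusted p = 0.160) and in DESeq2 (DESeq2 adjusted p = 0.262). Its trimer partners did not pass. Col6a1 had a log2 fold change of -0.21 (edgeR adjusted p = 0.0680) and Col6a2 one of -0.013 (edgeR adjusted p = 0.949).

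In type VIII, a short-chain network collagen of vessel walls and Descemet's membrane, Col8a1 (ENSMUSG00000068196) had 56.7, 60.9 and 44.7 CPM at high and 74.8, 64.6 and 69.6 CPM at low adhesion. The groups did not overlap, although litter 2 moved little (log2 fold change -0.37 ± 0.081, edgeR adjusted p = 0.00834). The call was lost without litter 1 (edgeR adjusted p = 0.0553) and in DESeq2 (DESeq2 adjusted p = 0.281). Its partner chain Col8a2 had 8.07, 5.80 and 7.18 CPM at high and 5.73, 5.17 and 6.21 CPM at low adhesion, higher in each litter but not past the test (log2 fold change 0.30 ± 0.13, edgeR adjusted p = 0.168).

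Col26a1 (ENSMUSG00000004415), a short collagen with an EMI domain known from testis and ovary, had 6.29, 4.75 and 6.81 CPM at high and 5.04, 3.65 and 3.41 CPM at low adhesion. It was higher in each litter and most so in litter 3, with a log2 fold change of 0.56 ± 0.15 (edgeR adjusted p = 0.0177). It did not pass without litter 3 (edgeR adjusted p = 0.366) or in DESeq2 (DESeq2 adjusted p = 0.467). Col18a1, a multiplexin of basement membrane zones whose C-terminal fragment is endostatin, had 5.36, 4.99 and 4.14 CPM at high and 5.73, 7.53 and 5.98 CPM at low adhesion. The groups did not overlap, but it did not pass (log2 fold change -0.41 ± 0.14, edgeR adjusted p = 0.0690). With Col1a1, Col2a1 and Col8a1 it made 4 tested collagens whose high adhesion libraries all lay below the low ones, which was true of 7.67% of all tested genes. Col7a1, Col10a1, Col15a1 and Col23a1 averaged between 0.754 and 1.14 CPM in either group and none passed (edgeR adjusted p from 0.513 for Col7a1 to 0.951 for Col23a1).

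Of all tested collagens, 13 were lower in 3 of 3 litters and 6 higher, against 20.4% and 20.9% of all tested genes. The other 14 genes had too few counts to be tested. They were Col24a1 (fibrillar), Col9a1, Col9a2, Col9a3, Col20a1 and Col22a1 (FACIT), Col4a6 (type IV), and Col6a4, Col6a5, Col6a6, Col13a1, Col17a1, Col25a1 and Col28a1 (other). No library held more than 13 counts of any of them, and 3 counts corresponded to 0.222 to 0.238 CPM before TMM scaling. Col24a1, a fibrillar chain of developing bone and cornea, had 3, 2 and 1 counts at high and 10, 6 and 10 counts at low adhesion. Its groups did not overlap, where 7.67% of all tested genes had high adhesion libraries all below the low ones. In the fit with no filter on low counts it passed (edgeR adjusted p = 0.0143), at no more than 10 counts per library. That fit called 640 genes higher and 734 lower of 40100. The other 13 did not pass there, with adjusted p of at least 0.379. Col28a1 had 1 count in all, in the high adhesion library of litter 2.

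The balance between the chains of one trimer is set here beside that between classes. Ratios are of CPM per kilobase of the longest protein-coding transcript of each gene in GENCODE M21. The sources do not say where along a transcript the reads fall, so a ratio describes these libraries and is not a chain stoichiometry. Col4a1 over Col4a2 was 2.66, 2.86 and 2.7 in the high adhesion libraries of litters 1, 2 and 3 and 2.73, 2.74 and 2.82 in the low adhesion libraries, ranges that overlap. Col4a1 over Col1a1 was 0.292, 0.388 and 0.302 at high and 0.209, 0.286 and 0.226 at low adhesion. Here every high adhesion library lay above every low one, and the same was seen for Col4a1 over Col3a1, with 1.81, 1.73 and 1.46 at high and 1.21, 1.1 and 1.05 at low adhesion. Both ratios set a gene called higher over a gene called lower in these same libraries. They restate those calls and are no separate result. Col1a1 over Col1a2 was 7.43, 8.05 and 9.40 at high and 8.43, 7.53 and 9.40 at low adhesion, without a common direction over litters.

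Ratios within types V, VI and VIII were lower at high adhesion in each litter, with and without overlap of the groups. Col5a2 over Col5a1 was 12.3, 8.19 and 10.4 at high and 12.5, 8.57 and 11.7 at low adhesion, with overlap. Col6a1 over Col6a2 was 1.01, 1.03 and 1.1 at high and 1.15, 1.29 and 1.17 at low adhesion. Col8a1 over Col8a2 was 5.95, 8.90 and 5.28 at high and 11.1, 10.6 and 9.50 at low adhesion. In both of these the groups did not overlap. Col6a3 over Col6a2 was 0.301, 0.351 and 0.357 at high and 0.346, 0.515 and 0.418 at low adhesion, where they did. Col5a2, Col6a3 and Col8a1 were themselves called lower in these same libraries. The ratios that set them over a partner chain rest in part on those calls and are no separate result. No test was run on a ratio.

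**Figure D3:**
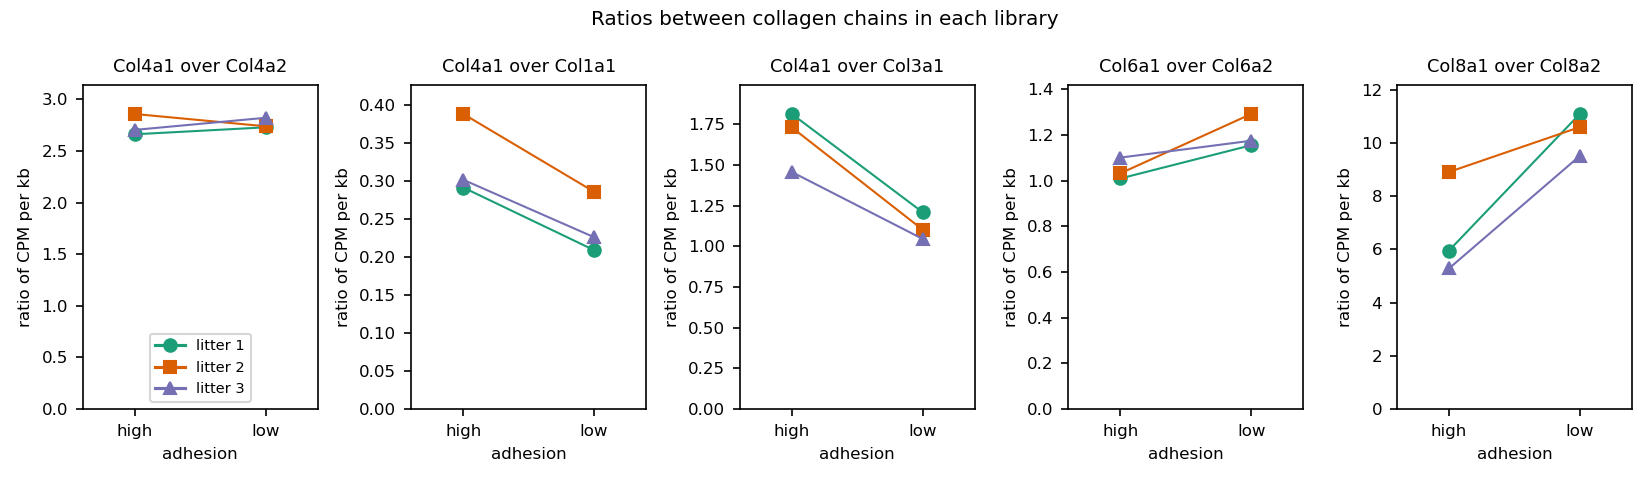
Ratio of CPM per kilobase (y axis from 0) between pairs of collagen genes in each library, high adhesion at the left and low at the right, with a line per litter. Col4a1 over Col4a2 stays between 2.66 and 2.86, while Col4a1 over Col1a1 and over Col3a1 are higher in each high adhesion library than in any low one. Those ratios set a gene called higher over a gene called lower in the same libraries.

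All 44 collagens together held 0.345%, 0.375% and 0.331% of the counts in the high adhesion libraries of litters 1, 2 and 3, against 0.366%, 0.418% and 0.360% in the low adhesion libraries. The share was lower at high adhesion in each litter, though the ranges overlapped because litter 2 was high on both substrates. Fibrillar genes held 0.254%, 0.261% and 0.24% at high and 0.282%, 0.311% and 0.273% at low adhesion, with no overlap. Type IV genes held 0.0642%, 0.0812% and 0.0622% at high and 0.0522%, 0.0722% and 0.0526% at low adhesion, higher in each litter. Both class shares rest mostly on genes already called. In the high adhesion library of litter 1, Col1a1 and Col5a2 gave 18058 and 8177 of 32408 fibrillar counts. Col4a1 and Col4a2 gave 5872 and 2151 of 8197 type IV counts there. Per kilobase of transcript, Col1a1 had the highest mean level of any collagen on both substrates (232 CPM per kb at high and 269 at low adhesion). Col5a2 came next (94.1 at high and 103 at low adhesion) and then Col4a1 (76.2 at high and 64.9 at low adhesion) and Col3a1 (45.9 at high and 58.4 at low adhesion).

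Litter was the second labelled difference between libraries, and 10 of the 30 tested collagens differed between litters in the same edgeR model (F-test on 2 degrees of freedom, adjusted p under 0.05), against 17.9% of all tested genes. The highest litter was litter 2 in 7 of these, litter 1 in 2 (Col16a1 and Col4a4) and litter 3 in 1 (Col6a3). Over all genes that differed, litter 2 was the highest for 1166 of 2655. Col14a1 in litter 2 was 6.91 times the mean of the other litters (edgeR adjusted p = 5.00e-10), and the contrast held on both substrates. Col5a1 had 65.6, 102 and 70.7 CPM at high and 69.2, 107 and 70.1 CPM at low adhesion, and its litter 2 level was 1.51 times that of the others (edgeR adjusted p = 1.32e-08). For Col4a1, Col3a1 and Col4a2 the same ratio was 1.36, 1.34 and 1.3. Col1a1, the most abundant, did not pass this test (edgeR adjusted p = 0.254).

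Of 10 smooth muscle and pericyte markers 6 differed between litters (edgeR, adjusted p under 0.05), with litter 2 the highest for Acta2, Tagln, Myh11, Cnn1 and Mcam and litter 1 for Des. All 10 together summed to 7002, 10997 and 7633 CPM at high and 5023, 8317 and 5715 CPM at low adhesion in litters 1, 2 and 3. Acta2 and Tagln made up most of that sum. Myh11, smooth muscle myosin, had 1.09, 10.7 and 1.33 CPM at high and 0.916, 4.87 and 0.757 CPM at low adhesion, and Des, the intermediate filament desmin, had 88.4, 53.5 and 56.1 CPM at high and 66.7, 40.3 and 37.7 CPM at low adhesion. Rgs5, Cspg4, Ren1 and Notch3 did not pass for litter. The part of these markers in the litter differences of the collagens was not tested. With 1 library for each litter and substrate, whether the effect of adhesion differs between litters has no residual error to test it against.

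**Figure D4:**
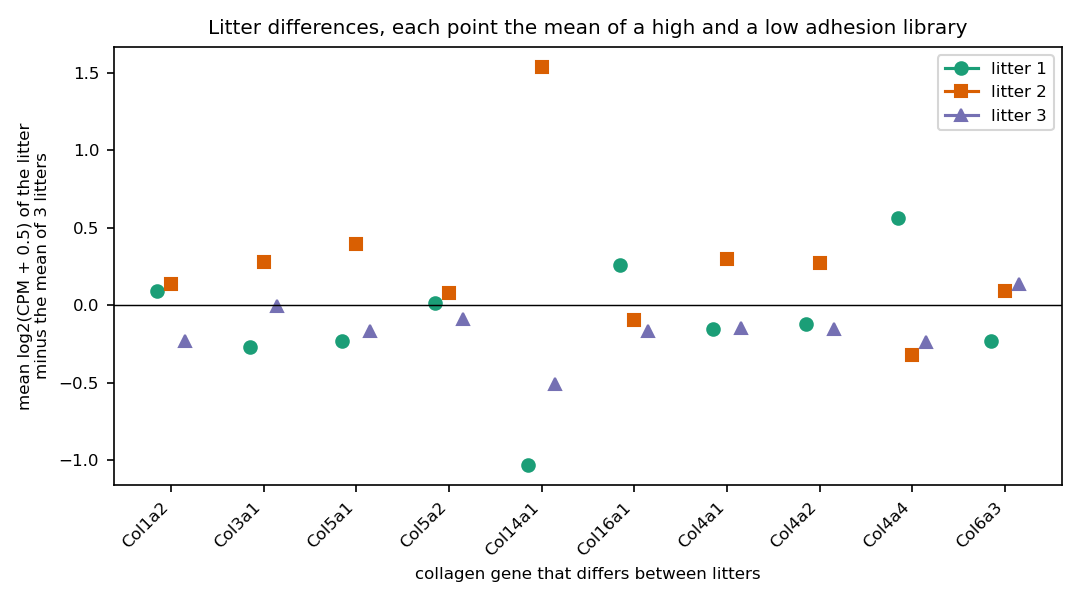
Litter means of the 10 collagens that differed between litters, as log2(CPM + 0.5) over both substrates minus the mean of the 3 litters (y axis). Litter 2 (squares) lies above the other litters for Col1a2, Col3a1, Col5a1, Col5a2, Col14a1, Col4a1 and Col4a2, most widely for Col14a1.

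Genes that make, cross-link, bind and degrade collagen were read from 4 lists, in which 8 tested genes fell and none rose. Beside these counts, 4.83% of all tested genes were called lower and 4.71% higher. Among 20 tested genes for procollagen modification, folding and export 3 fell and none rose. P4ha3, a catalytic subunit of prolyl 4-hydroxylase, had 18.9, 30.8 and 23.4 CPM at high and 20.8, 47.4 and 29.2 CPM at low adhesion (log2 fold change -0.39 ± 0.081, edgeR adjusted p = 0.00191). Creb3l1, a transcription factor that drives type I collagen genes in bone, had a log2 fold change of -0.23 (edgeR adjusted p = 0.00690), and Mia3, which exports procollagen from the endoplasmic reticulum, one of -0.17 (edgeR adjusted p = 0.0441). Serpinh1, the collagen chaperone HSP47, averaged 2765 ± 268 CPM at high and 2754 ± 289 CPM at low adhesion (SD, n = 3 each) and did not pass (edgeR adjusted p = 0.948). Among 11 tested genes for propeptide cleavage and cross-linking 2 fell and none rose. They were the lysyl oxidase relative Loxl2, with 108, 127 and 95.8 CPM at high and 134, 154 and 110.0 CPM at low adhesion (edgeR adjusted p = 0.000341), and the procollagen C-proteinase enhancer Pcolce2 (log2 fold change -0.40, edgeR adjusted p = 0.00356).

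Of 7 tested collagen receptors 2 fell and none rose, where 4.83% of all tested genes fell and 4.71% rose. Itga2, the alpha subunit of a collagen-binding integrin, had 3.49, 1.13 and 1.70 CPM at high and 6.80, 1.90 and 3.79 CPM at low adhesion, lower in each litter (log2 fold change -0.98 ± 0.18, edgeR adjusted p = 0.000464). Itga1, the alpha subunit of a receptor for type IV collagen, had 16.6, 41.3 and 16.7 CPM at high and 21.6, 62.0 and 15.3 CPM at low adhesion, lower in litters 1 and 2 and higher in litter 3 (edgeR adjusted p = 0.0438). Of 9 tested genes for degradation 1 fell, the collagenase Mmp13 (log2 fold change -0.47, edgeR adjusted p = 0.0472). Mmp2 and Mmp14, gelatinase A and its membrane-bound activator, did not pass (edgeR adjusted p = 0.437 and 0.897). The median log2 fold changes of the 4 lists, in the order given, were -0.036, -0.072, -0.12 and -0.017, against -0.0012 over all tested genes. Without the litter block none of these 8 genes was called. DESeq2 called 1 of the 8, Loxl2, and with library size as the only scaling 5 of the 8 were called, without Mia3, Itga1 and Mmp13. Without litter 2, 5 genes of the lists were lower and 1 higher, the integrin subunit Itgb1 (0.13 on the log2 scale, edgeR adjusted p = 0.0332). Without litter 1, 6 were lower and 1 higher, the lysyl oxidase relative Loxl4 (0.86 on the log2 scale, edgeR adjusted p = 0.0409). Both counts of lower genes include genes outside the 8. Without litter 3, 7 were lower, all of them among the 8, and none higher. Over all genes, fits with 1 litter left out called 426 to 734 higher and 482 to 819 lower of 14832 to 15073 tested.

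**Figure D5:**
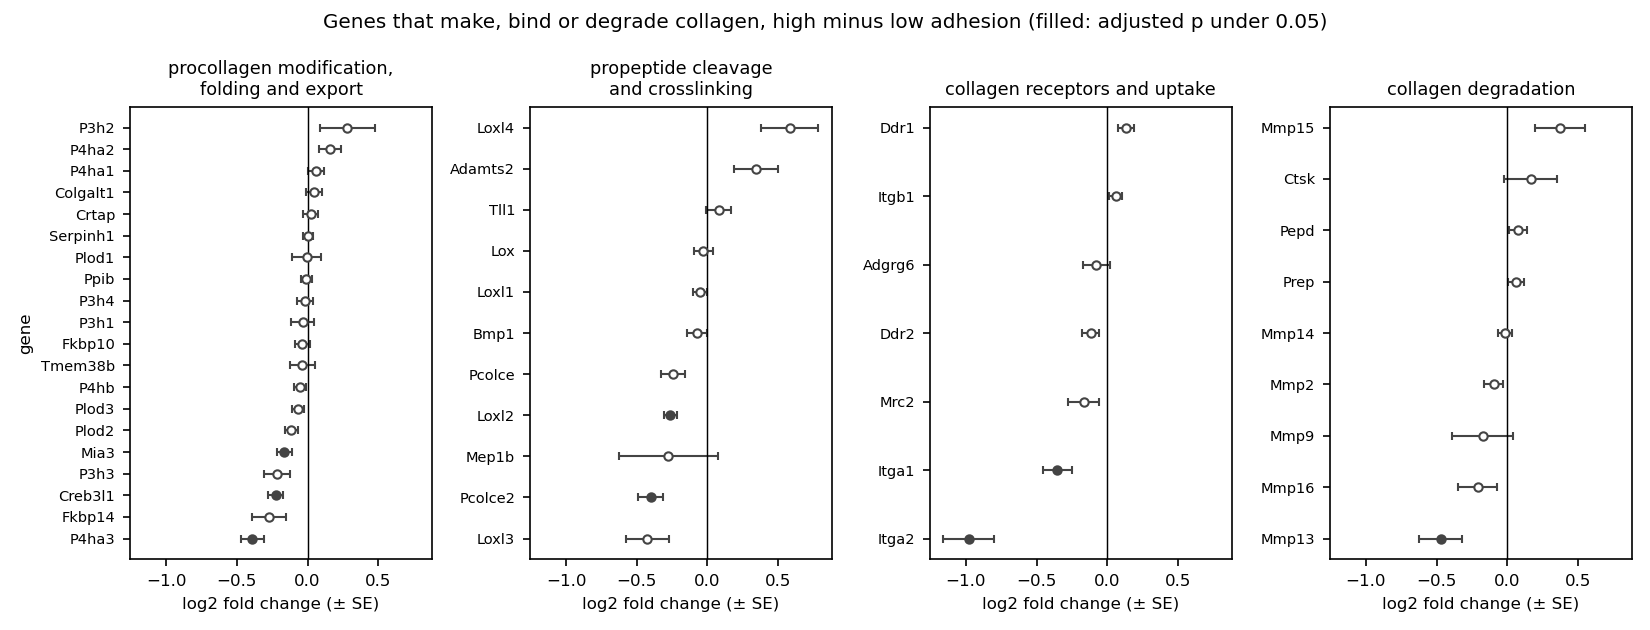
Log2 fold change (high minus low adhesion, x axis, ± standard error) of the tested genes of 4 lists that make, cleave and cross-link, bind or degrade collagen, with filled points for an adjusted p under 0.05. The 8 filled points all lie left of 0, from -0.17 for Mia3 to -0.98 for Itga2.

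The libraries carried the markers of the sorted stroma, 7 of which were lower at high adhesion. For the marker counts given here, the shares over all tested genes were 4.83% called lower and 4.71% called higher. Pdgfra, the receptor sorted for, had 26.2, 17.2 and 19.8 CPM at high and 33.8, 26.6 and 32.0 CPM at low adhesion (edgeR adjusted p = 1.59e-05). Of 10 stroma markers 7 fell and none rose, while Tcf21, Aldh1a2 and Dcn did not pass, and the sum of the 10 was 554 to 603 CPM at high and 674 to 751 CPM at low adhesion; Rarb (-0.80 on the log2 scale) and Meis2 (-0.40) had the lowest adjusted p beside Pdgfra. Fn1, the mouse gene for fibronectin, did not pass (-0.061 on the log2 scale, edgeR adjusted p = 0.438), while the coat was the bovine protein. The part of the stromal markers' change in the collagen results was not tested. Macrophage and leukocyte markers summed to 41.3 to 102 CPM at high and 53.0 to 102 CPM at low adhesion (1 of 11 tested higher, 1 lower), nephron progenitor markers to 94.1 to 124 CPM at high and 84.3 to 109.7 CPM at low adhesion (2 of 9 higher), and nephron epithelium markers to 116 to 126 CPM at high and 126 to 138 CPM at low adhesion (2 of 10 higher, 2 lower). Of 8 glial markers 1 was tested and not called, and Sox10 never exceeded 1 count.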

How the data were processed

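Polyadenylated RNA was measured in 6 libraries, 3 per substrate, prepared by a commercial service with tagmentation, per the labels' protocols. The submitters' processing notes name fastp 0.24.0, STAR 2.7.11, featureCounts of Subread 2.1.1 and build GRCm39. Not given in the sources used here were the annotation release, the strand setting and how multi-mapping reads were treated. Deposited by the authors were estimated counts per gene, unscaled and partly fractional, and CPM, which differ from CPM of those counts by at most 5.1e-11. Fractional genes held 57.3% to 59.8% of the counts, so overlapping genes, antisense partners and near copies are uncertain; Col12a1 was fractional in 4 libraries and Col3a1 and Col27a1 in 3.

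Counts were rounded and tested with edgeR 4.0.16 (R 4.3.3) over 14834 genes kept by filterByExpr, with TMM scaling, a litter block, a robust quasi-likelihood fit, two-sided tests and Benjamini-Hochberg adjustment over all tested genes at 0.05. The block follows the series' design text, which matches libraries by litter. Deviations from the group means correlated at 0.60, 0.61 and 0.39 within litters and at -0.52 to -0.076 between them. Such deviations cancel within a group, so positive values within litters bring negative values between them. Fold changes are high over low adhesion, with a standard error of the log2 fold change over the root of F. Values per litter use log2(CPM + 0.5). DESeq2 1.42.0 and limma 3.58.1 served as alternatives, and the fit was tested on simulated data. Floors of 3 counts cover counting error only.

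Members, classes and lists were chosen with earlier results of these data known. Named genes are all collagens, up to 4 called genes of each pathway list, up to 3 called markers of each cell type list, Pdgfra and Fn1; Serpinh1, Mmp2, Mmp14, Gata3, Epcam, Wnt9b, Pecam1, Cdh5, Matn1, Cnmd, Nphs1, Sox10, Myh11, Des, Mcam, Ren1, Notch3, Rgs5, Cspg4, Tcf21, Aldh1a2, Dcn, Itgb1 and Loxl4 were added after their values were seen. Promoter sequences are RefSeq's (GRCm38.p6), matched by symbol for 35 of 44 members.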

Additional observations from a re-analysis of the deposited data

How the results depend on the processing

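The counts of 4 higher and 7 lower collagens were recomputed under 12 alternatives. With no replicate block there were 0 higher and 0 lower, so 0 fibrillar, FACIT, basement membrane and other collagens passed in either direction. That fit called 20 genes higher and 16 lower of 14834. DESeq2 gave 2 higher and 2 lower, where 207 and 199 of 11670 genes were called. Over genes of at least 5 CPM alone, which leaves out Col2a1, Col19a1 and Col26a1, 2 were higher, against 717 of all 10202 genes tested. In each other setting the counts were within 1.5 times those reported, and leaving out 1 litter gave 3 to 4 higher and 5 to 8 lower. Over all genes the calls with 1 litter left out moved too, 426 to 734 higher and 482 to 819 lower of 14832 to 15073 tested. The litter test called 10 collagens, against 17.9% of all tested genes. It called 6 in DESeq2 and 7 to 9 with 1 litter left out, and shares over all genes for those alternatives are not given here. Of 117 recomputed values for the 11 called collagens 94 kept their direction and call, 23 lost the call and none changed sign. Col1a1, Col3a1, Col4a1 and Col4a2 lost it only without the block, of 11 settings each. Col19a1 also lost it only there, but of 9 settings, as the 5 CPM filter and DESeq2 gave it no value. Signs changed only among uncalled genes with 1 litter left out, where log2 fold changes ranged from -0.033 to 0.33 for Col11a2, -0.033 to 0.050 for Col16a1, -0.072 to 0.018 for Col6a2, -0.40 to 0.22 for Col10a1 and -0.32 to 0.31 for Col23a1. Col27a1 and Col18a1 passed without litter 1 (edgeR adjusted p = 0.0258 and 0.0301), and Col5a3, Col27a1 and Col6a1 over genes of at least 5 CPM (edgeR adjusted p = 0.0477, 0.04997 and 0.0492). Moving types VII, XV and XVIII to the basement membrane class left its count at 2 higher and 0 lower. Of protein-coding counts alone, collagens held 0.362% to 0.409% at high and 0.394% to 0.457% at low adhesion, again lower in each litter. The causes of the lost calls were not tested.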

Other observations

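Collagen genes that lie next to each other in RefSeq (GRCm38.p6, protein-coding neighbours) were set side by side. Col3a1 and Col5a2, neighbours on chromosome 1, both fell, and Col4a1 and Col4a2 both rose. In the other adjacent pairs no member passed except Col19a1, whose neighbour Col9a1 had 6, 5 and 2 counts at high and 3, 8 and 2 counts at low adhesion and was too low to test. Col4a4 and Col4a3, known to be transcribed head to head, had log2 fold changes of 0.27 and -0.21, and Col6a2 and Col6a1 of -0.013 and -0.21, none of them past the test.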
